A study of Mus musculus with 6 samples.

Results

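MicroRNA genes of the mouse that carry a provisional symbol beginning with Gm, or a Mir number of 1000 or more, were examined in small RNA libraries of the newborn heart. Both kinds of name were given late or provisionally, and the annotations are taken here as more weakly supported than those of the older numbers. Of the 134 miRNA genes in the deposited table, 29 were chosen by name, 19 with a Gm symbol and 10 with a high Mir number. Gm25301 was left out by the same rule. The other 102 miRNA genes with an older name, Mir208b or Mirlet7e for example, served for comparison, and 2 genes that the table classes as miRNA but that are named for tRNA, n-TSaga9 and n-TStga1, were kept apart. The Mir numbers on either side of the boundary lie far from it, at 652 (Mir652, mean 31.5) and 3071 (Mir3071, mean 2.96).

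The libraries came from whole hearts of female SV129 mice at postnatal day 6. In all, 3 samples were ADAR2-/- (Adarb1-/-, Gria2R/R) and 3 were wild-type siblings (Adarb1+/+), and the study asked which miRNAs differ when ADAR2, an enzyme that edits adenosine to inosine in RNA, is missing. Gria2R/R is a glutamate receptor gene that encodes the edited form and rescues ADAR2-/- mice from early death. The extraction notes and the paper's methods give the R/R allele to both genotypes, whereas the genotype label of the wild-type samples does not name it. The deletion is constitutive, so every cell type of the heart lacks the enzyme.

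The measure used was the mean normalized count of each gene, a single value that the authors averaged over all samples. It holds no value per animal, so these levels have no error, no test was possible, and no difference between the genotypes is given. The study states only a minimum number of reads per sample, and the depth behind each value is not in the table. The means of all 10065 genes ran from 1.09 to 4563 with a median of 6.65. Protein-coding genes held 81.5% of their sum and miRNA genes 2.55%, and the members held 0.155%. Heart markers were only partly listed, with 9 of 11 listed cardiomyocyte genes in the table at 4.82 to 943, all 5 endothelial genes at 2.59 to 675 and 4 of 5 fibroblast genes at up to 44.8. Among the cardiomyocyte genes, Myh7 (943) and Myh6 (425) were close to Mir208b (938) and Mir208a (413), which lie in their introns. The highest of the other cardiomyocyte genes was Ttn at 82.9. The endothelial 675 is that of Mir126a, with Pecam1 next at 11.6. Of 3 smooth muscle genes only Mir143 was listed, at 289, and all 5 red blood cell genes were, at 2.45 to 31.4. Of 5 genes of brain, liver and pancreas 3 were listed, the highest being Syt1 of neurons at 114. Adarb1, the targeted gene, had a mean of 16.6, which cannot check the genotype labels because it pools both groups.

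A miRNA is cut from a hairpin transcript. Drosha frees the hairpin from the primary transcript in the nucleus, Dicer removes its loop in the cytoplasm, and a single strand of the duplex enters an Argonaute protein. Target choice rests mainly on the seed, bases 2 to 8 of that strand. Hairpins are easy to find in a genome by folding alone, so predicted miRNA genes often lie on other short structured RNAs, on the opposite strand of known miRNAs or in repeated sequence. Small RNA libraries also take up fragments of abundant RNAs such as 7SL, the RNA of the signal recognition particle, and tRNA.

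The names differed in their RefSeq entries. RefSeq (GRCm38.p6) held a mature sequence for 8 of the 29 members, all of them among the 10 with a Mir number, and for 89 of the 102 older-numbered genes. None of the 19 Gm members had a RefSeq hairpin entry under its symbol. The lookup went by symbol, so a missing entry can reflect the name and not the support for a gene. Mir143 and Mir486, for example, also had no mature sequence there. The members were then sorted by what they overlap or resemble, a grouping made after their values were seen. Of the 29, 8 lie opposite an older-numbered miRNA gene, 7 lie inside genes of the 7SL type, 5 are near-identical copies of 57 bases, 2 contain the mature miR-703, 1 resembles tRNA, 1 overlaps a snoRNA, and 5 have no such partner.

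The sequences of the opposite-strand kind show how closely the hairpins match. miR-24-3p is a mature miRNA of the old numbering, and miR-3074-5p is named on the other strand of the same hairpins. Each is printed 5′ to 3′ with its seed in capitals, from RefSeq.
mmu-miR-3074-5p: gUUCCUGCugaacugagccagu
mmu-miR-24-3p: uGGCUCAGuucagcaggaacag
mmu-miR-3071-3p: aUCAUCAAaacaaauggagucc
mmu-miR-136-5p: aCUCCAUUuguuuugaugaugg
mmu-miR-3544-3p: aCUCCUGCaugacgccguuccc
mmu-miR-337-5p: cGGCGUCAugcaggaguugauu
Read in reverse, miR-3074-5p, miR-3071-3p and miR-3544-3p each pair with the older miRNA printed after it over at least 15 bases. The seeds nevertheless differ, because reading the other strand puts other bases in positions 2 to 8.

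The 2 opposite-strand members with the highest means are shown as whole hairpins, from GENCODE M21 (GRCm38). In Gm24111 (chr13:48537825-48537921, plus strand) the capitals mark the complement of let-7f-5p. In Mir3107 (chr8:23142573-23142662, minus strand) they mark the longest run that the Mir486 hairpin on the plus strand also holds in the same direction.
Gm24111: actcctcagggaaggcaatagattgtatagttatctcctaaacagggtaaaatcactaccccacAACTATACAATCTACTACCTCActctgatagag
mmu-let-7f-5p: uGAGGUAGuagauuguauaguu
Mir3107: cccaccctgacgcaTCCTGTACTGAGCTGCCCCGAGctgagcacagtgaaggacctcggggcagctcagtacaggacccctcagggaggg
The run shared by Mir3107 and Mir486 is 22 bases long, so a short read of it could come from either strand. All 90 bases of Mir3107 are the reverse complement of part of Mir486.

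The 57-base copies are shown because a short read can match several of them. Gm24245 and Gm23935 have the sequence of Gm24270 (chr9:56223715-56223771, minus strand) without a difference. Gm24187 (chr13:9834469-9834525, minus strand) and Gm23388 (chr8:85112012-85112068, minus strand) have in capitals the bases that differ from it.
Gm24270: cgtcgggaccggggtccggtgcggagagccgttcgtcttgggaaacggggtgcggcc
Gm24187: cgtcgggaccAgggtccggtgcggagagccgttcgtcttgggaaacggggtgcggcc
Gm23388: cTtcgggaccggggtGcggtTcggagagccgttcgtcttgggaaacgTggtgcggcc
The differences are G11A in Gm24187 and G2T, C16G, G21T and G48T in Gm23388, counted from 1 at the 5′ end of Gm24270.

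The last hairpin shown is Gm44456 (chr13:21924928-21925016, minus strand), with the stretch it shares with the tRNA-named gene n-TStga1 in capitals.
Gm44456: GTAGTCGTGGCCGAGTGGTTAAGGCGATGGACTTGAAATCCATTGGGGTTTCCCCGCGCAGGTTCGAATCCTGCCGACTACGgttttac
The shared stretch covers 82 of its 89 bases. With n-TSaga9 the longest shared stretch was 33 bases.

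The members were measured at lower levels than the older-numbered genes. Their median mean normalized count was 4.56, with a range from 1.93 to 71.6, and the median of the older-numbered genes was 9.16, with a range from 1.63 to 938. The ratio of the medians was 2.01, and it was 1.98 on the scale of mean normalized count per 100 bases of hairpin, where the medians were 5.48 and 10.8. Of the members 8 lay above the median of the older-numbered genes and 21 below it, and 20 lay below the median of the whole table. In 8 members the mean equals that of an older-numbered gene, so the sets are not fully separate. With those pairs left out, the medians were 4.56 for 21 members and 9.48 for 94 older-numbered genes. The ranges overlapped widely, and without a value per animal the difference could not be set against the spread between hearts.

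A mean of at least 10 was reached by 7 of the 29 members (24.1%) and by 48 of the 102 older-numbered genes (47.1%). Over all genes of the table the share was 36.0%. No member reached 100, and 7 older-numbered genes did. The members took 6.06% of the summed means of all miRNA genes. The highest older-numbered genes were Mir208b at 938, Mir126a and Mir126b at 675 each, Mir208a at 413 and Mir143 at 289. These are well-known miRNAs of heart muscle (miR-208), endothelium (miR-126) and smooth muscle (miR-143), and 12 older-numbered genes stood above the highest member.

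**Figure D1:**
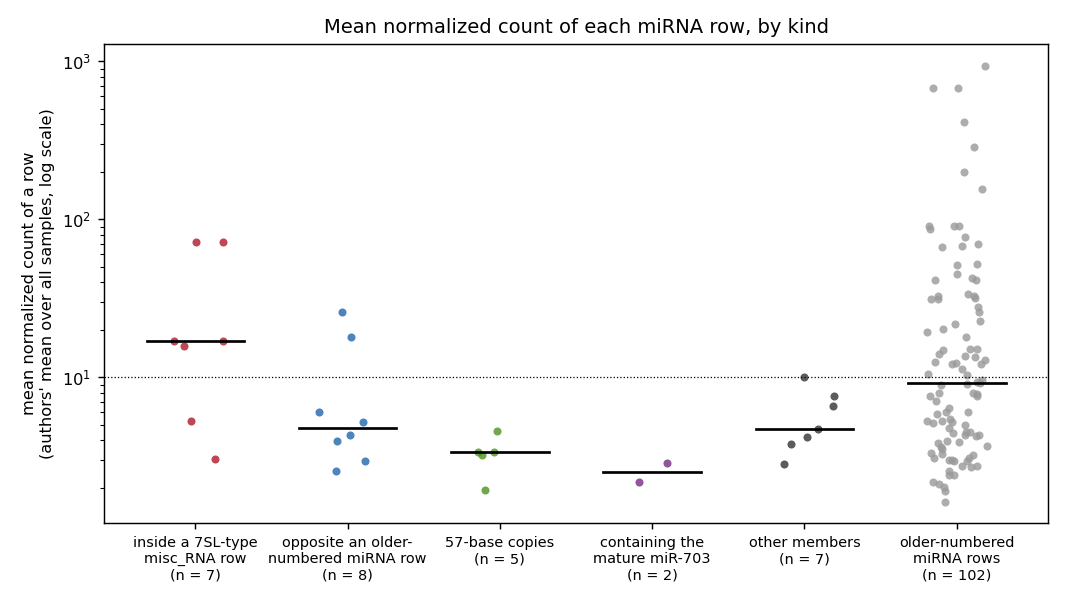
Mean normalized count of each miRNA gene (authors' mean over all samples, log scale), 1 point per gene, with members split by what they overlap or resemble and older-numbered genes in grey; the bars are medians and the dotted line marks 10. The 7SL kind has the highest median of the members, 17.0, above the 9.16 of the older-numbered genes, and the 57-base copies all lie below 5.

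The members with a mean of at least 10 fell in only 2 of these kinds. Gm47295 (71.6), Gm47299 (71.5), Gm47287 and Gm47305 (17.0 each) and Gm24105 (15.8) were of the 7SL kind. Gm24111 (25.8) and Mir3107 (17.98) lie opposite an older-numbered gene. Gm47295 and Gm47299 together made up 43.2% of the summed means of all members, and the 7SL kind as a whole made up 60.7%. Gm47299 repeats all 79 bases of Gm47295, and Gm47287 and Gm47305 are identical, so these sums may hold the same reads more than once. Mir6240 was just under the boundary of 10, at 9.999. The 3 lowest members were Gm23388 (1.93), Gm26384 (2.19) and Mir3544 (2.56).

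Every member of the 7SL kind lies on the same strand as a gene that GENCODE M21 classes as misc_RNA. Rn7s1 and Rn7s2 are genes for 7SL RNA itself, and each of the other host genes shares 20-base stretches with them. Both are 300 bases long on chromosome 12, and their sequences do not differ at a single base. Reads of the pair cannot be told apart by sequence, and their means were 84.2 in both cases after rounding.

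In Rn7s1, Gm47295 starts at base 224 of the gene and ends 2 bases past its end. Its mean of 71.6 was 85.1% of the mean of Rn7s1. Gm47287 covers bases 143 to 212, and its 17.0 was 20.1% of the mean of Rn7s1. The member at the end of the gene thus had the higher mean, and per 100 bases the mean was 90.7 for Gm47295, 24.2 for Gm47287 and 28.1 for Rn7s1 as a whole. The members are 11 bases apart, and their means summed to 105.2% of that of Rn7s1, which is more than the whole.

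Rn7s2 gave the same picture. Gm47299 had 71.5, or 85.0% of the mean of Rn7s2, and Gm47305 had 17.0, or 20.1%. Gm47287 and Gm47305 had exactly the same mean, and Gm47304 has the same 70 bases on chromosome 6 inside Rn7s6 but a mean of 5.27. Gm47299 likewise repeats all 79 bases of Gm47295. Identical hairpins therefore did not all have identical means. Rn7s6 itself, a related 7SL-type gene, had 11.0, so that Gm47304 came to 47.8% of it.

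The pair of members left in this kind lie in genes with lower means than Rn7s1 and Rn7s2. Gm24105 is the symbol of both a miRNA gene (ENSMUSG00000105790, the member) and a misc_RNA gene (ENSMUSG00000092674), which lie on each other. The member had 15.8, or 92.3% of the 17.1 of the misc_RNA gene. Gm47306 had 3.05, or 96.0% of the 3.18 of Gm22701, and both lie in an intron of Hydin (87.2), a gene of motile cilia. The means of these members were thus close to those of their hosts, whereas in Rn7s6 the member was lower.

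**Figure D2:**
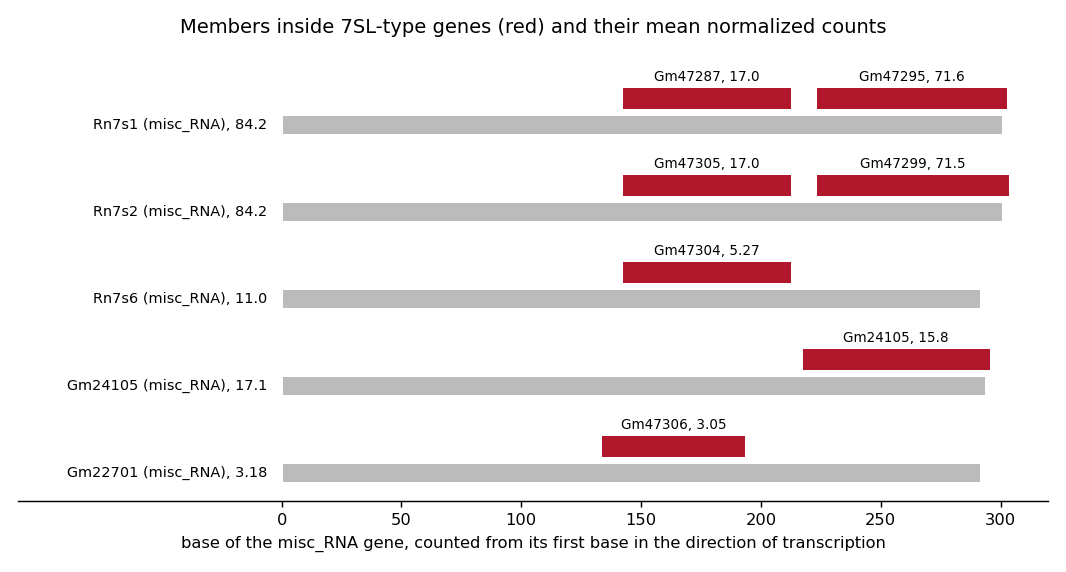
Position of the 7 members of the 7SL kind (red) on the misc_RNA genes that hold them (grey), in bases from the first base of each gene in its direction of transcription, with the mean normalized count beside each name. In Rn7s1 and Rn7s2 the member at the end of the gene (71.6 and 71.5) is higher than the member in its middle (17.0 in both).

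The 8 opposite-strand members all had a mean equal to that of the older-numbered gene across from them, to the last digit deposited. These were Gm24111 and Mirlet7f-1 (25.8), Mir3107 and Mir486 (17.98), Gm25927 and Mirlet7e (6.08), and Gm25252 and Mir376a (5.22). The others were Mir3074-2 and Mir24-2 (4.35), Mir3074-1 and Mir24-1 (3.97), Mir3071 and Mir136 (2.96), and Mir3544 and Mir337 (2.56). The level of such a member and that of its partner cannot be told apart in this table. For comparison, 336 of all 10065 genes (3.34%) had a mean equal to that of another gene, against 12 of the 29 members (41.4%) and 24 of the 102 older-numbered genes (23.5%).

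Older-numbered genes showed such pairs too. The table holds 14 overlapping pairs of miRNA genes, all 14 on opposite strands and all 14 with equal means. They include 10 older-numbered genes that overlap each other, such as Mir126a and Mir126b. Overlap with another miRNA gene was found for 27.6% of the members and 18.6% of the older-numbered genes. Whether reads were counted by strand is not given in the sources used here.

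The partners of these members are established miRNAs. let-7f and let-7e belong to the let-7 family, a regulator of developmental timing that shares the seed GAGGUAG, miR-486 is abundant in red blood cells and muscle, and miR-24 is expressed in many tissues. RefSeq held mature sequences for 7 of the 8 partners, and all 7 members across from them contain the full complement of a mature partner sequence. The mature let-7f-5p is also contained in Mirlet7f-2 on chromosome X (22.7), so a read of it matches that gene as well as the position shared by Gm24111 and Mirlet7f-1. Gm24111 also lies opposite an exon of the lincRNA gene 6720427I07Rik (28.0), of which its mean was 92.1%.

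Mir3544, Mir3071 and Gm25252 lie in 1 region of chromosome 12 (chr12:109585813-109585873, chr12:109595318-109595397 and chr12:109723756-109723875, all on the minus strand). Their partners Mir337, Mir136 and Mir376a belong to the imprinted Dlk1-Dio3 cluster of miRNAs, on the plus strand. Mir3071 lies within a coding exon of Rtl1 on the same strand, a retrotransposon-derived gene of that cluster that is known from the placenta. Its mean of 2.96 was 24.6% of the 12.01 of Rtl1. All 3 members had means below 6, so this stretch of the chromosome contributed little to the members' sum.

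Mir3074-1 (chr13:63301199-63301283, minus strand) and Mir3074-2 (chr8:84208825-84208907, minus strand) share the mature miR-3074-5p. Mir3074-1 lies in an intron of Fancc, a gene of DNA crosslink repair (15.1), on the same strand, and opposite a UTR exon of 2010111I01Rik (38.6). Mir3074-2 overlaps no gene of the table but Mir24-2. Gm25927 (chr17:17830343-17830459, minus strand) lies opposite an intron of Spaca6, a sperm protein gene (6.93), of which its 6.08 was 87.7%. The surroundings of these genes thus differ, while the equality with the miRNA across from each was the same.

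The 5 copies of 57 bases had low means. Gm24270 had 4.56, Gm24245 and Gm23935 had 3.37 each, Gm24187 had 3.23 and Gm23388 had 1.93. The 3 identical copies were highest and the copy with 4 differences lowest. The identical copies alone ranged from 3.37 to 4.56, a wider gap than that from 3.37 to the 3.23 of Gm24187. Whether the order has to do with the match to the shared sequence was not tested. Gm24270 lies in an intron of Peak1 (165), Gm23935 opposite an intron of Zc3h7a (150) and Gm23388 in an intron of Zfp791 (85.3), and each had under 3% of the mean of that gene. Gm24245 (chr4:139338304-139338360, plus strand) and Gm24187 overlap no gene annotated in GENCODE M21. The copies were not compared with RNAs outside that annotation. Reads of the 3 identical copies cannot be told apart by sequence.

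Gm26377 and Gm26384 both contain the mature miR-703 sequence, whose own gene Mir703 is not a row of the table, and they share 57 bases without a difference. Gm26377 (chr9:78478528-78478635, minus strand) had a mean of 2.88 and lies wholly in a UTR exon of Eef1a1 (40.2), which encodes translation elongation factor 1 alpha and is among the most highly expressed genes of most cells. Gm26384 (chr17:21284103-21284212, minus strand) had 2.19 and lies opposite an intron of Vmn1r236, a vomeronasal receptor gene with no row in the table. Eef1a1 holds all 108 bases of Gm26377 in its transcript. A fragment of Eef1a1 mRNA and a product of Gm26377 cannot be told apart.

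Gm44456, the member that resembles tRNA, had a mean of 4.75. The means of n-TStga1 and n-TSaga9, 3.48 and 3.37, were in the same range. Gm44456 was folded into 4 hairpin loops and not into a single stem. Mir5121 (chr7:45126918-45126991, minus strand) had 3.82, and it shares 30 of its 74 bases with Snord33 (4.25), a snoRNA that guides methylation of ribosomal RNA. Mir5121 also overlaps a coding exon of Rpl13a (14.6), a ribosomal protein gene known to host several snoRNAs.

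The 5 members without such a partner were Mir6240 (9.999), Mir6236 (7.66), Mir6406 (6.57), Gm27881 (4.19) and Mir5099 (2.82). Their mature sequences are of interest because here no other RNA annotated in GENCODE M21 covers the hairpin on the same strand. Only that annotation was searched, so an RNA missing from it, such as an unlisted ribosomal RNA, would not have been found. RefSeq gave them for 3 of the 5, printed with the seed in capitals, and miR-330-3p follows because it has the seed of miR-6240.
mmu-miR-6240: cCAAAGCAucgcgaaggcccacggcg
mmu-miR-330-3p: gCAAAGCAcagggccugcagaga
mmu-miR-6236: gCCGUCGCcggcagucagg
mmu-miR-6406: cGCGACCUcaggcugacucaug
The seed CAAAGCA of miR-6240 was the only one that any of the 8 members with a RefSeq mature sequence shared with an older-numbered gene of the table, and Mir330 had a mean of 3.29. Mir6406 (chr11:68220892-68221011, plus strand) lies opposite an intron of Ntn1, which encodes the guidance cue netrin-1 (17.6), and Gm27881 (chr1:13262198-13262279, plus strand) opposite an intron of Ncoa2, a nuclear receptor coactivator (20.4). Mir6240 (chr5:114851948-114852064, plus strand), Mir6236 (chr9:110281287-110281409, plus strand) and Mir5099 (chr12:36816205-36816278, plus strand) overlap no annotated gene. Mir6240 and Mir6236 nevertheless shared 20-base stretches on the same strand with 3 and 6 genes elsewhere. For Mir6406, Gm27881 and Mir5099 the number was 0.

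Overlap was common in both sets, and the kind of overlapping gene differed. At least 1 other gene of the table was overlapped by 22 of the 29 members (75.9%) and by 76 of the 102 older-numbered genes (74.5%). A misc_RNA or snoRNA gene was overlapped by 8 members and by 0 older-numbered genes. The 7 members that overlap no other gene of the table had means from 2.19 to 9.999. All members with a mean of at least 10 thus lie on another gene of the table.

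**Figure D3:**
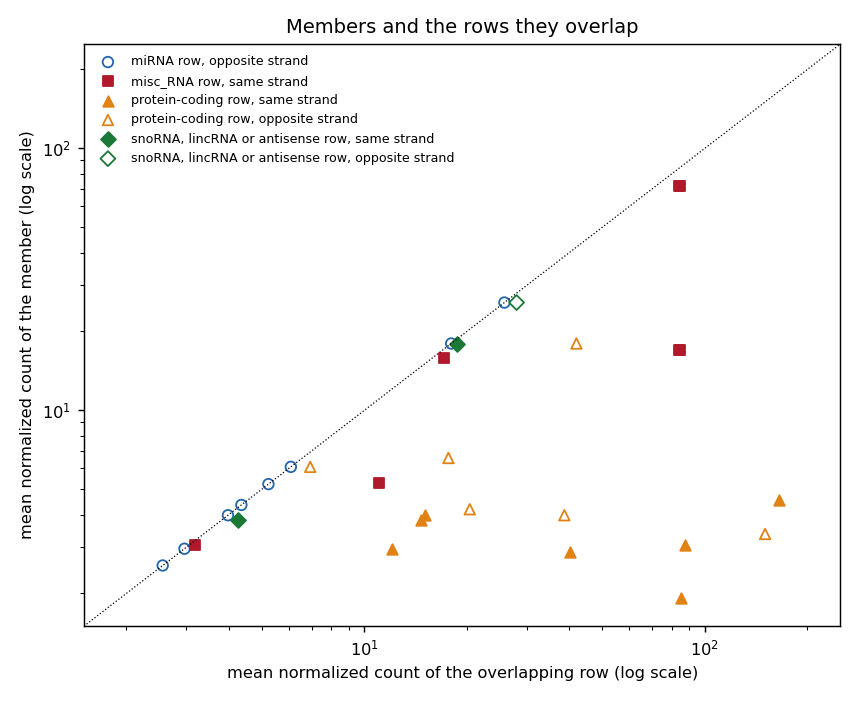
Mean normalized count of each member against that of every row of the table it overlaps (both on log scales), with filled symbols for the same strand, open symbols for the opposite strand and a dotted line of equality. The open circles, the 8 miRNA pairs on opposite strands, lie on the line, and most protein-coding rows lie far to its right.

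Where a miRNA gene lay within a longer gene, its share of that gene's mean was compared between the sets. With at least 95% of the hairpin inside a gene of another class, and the one with the lowest mean taken, such a gene was found for 19 members and 71 older-numbered genes. The median share was 26.4% for the members, from 2.24 to 96.1%, and 62.0% for the older-numbered genes. A share of at least 90% was seen for 4 members (21.1%) and for 20 older-numbered genes (28.2%), among them Mir208b with 99.4% of Myh7 and Mir208a with 97.3% of Myh6, the beta and alpha cardiac myosin heavy chain genes that hold them in introns. The share holds the gene's own mean, so it is tied to level by the way it is made. The median share was 83.6% for older-numbered genes with a mean of at least 10 and 45.5% for those under 10. For the 10 members under 10 whose host was no misc_RNA gene it was 22.6%, with 0 at 90% or more. Mirlet7a-1 exceeded the gene around it, with 183% of 6720427I07Rik, so the share is not always a part of the host's reads. The cause of that excess was not tested. Elsewhere the means were nearly or exactly equal, as for Mir126a (675.2) and Egfl7 (675.8), or Mir125b-1 and Gm28119 (32.6 each). Whether a host's mean includes the reads of the miRNA gene inside it is not known, so the values need not be independent.

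Sequence shared with genes elsewhere was found in both sets, and the difference between them depended on the length asked for. A stretch of 20 bases was shared on the same strand with a gene that does not overlap in 19 of 29 members (65.5%) and 40 of 102 older-numbered genes (39.2%). With 18 bases the counts were 20 and 60, and with 22 bases they were 19 and 31, so the older-numbered count moved far more than that of the members. At 20 bases the members shared stretches with up to 13 genes, a number reached by Gm47287, Gm47305 and Gm47304, and the older-numbered genes with up to 4. In 16 members the sharing gene was another member. The 29 members comprised 25 distinct hairpin sequences, while all 102 of the older-numbered genes were distinct.

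The predicted folds differed as well. The minimum folding energy per base, which is lower for a more stable fold, had a median of -0.35 kcal/mol for the members and -0.43 kcal/mol for the older-numbered genes, and 25 of 29 members lay above the older-numbered median. A single hairpin loop was predicted for 18 members (62.1%) and for 98 older-numbered genes (96.1%). All 10 members with a Mir number had 1 loop, and 8 of the 19 Gm members did. The 11 members with more loops were 5 of the 7SL kind, the 5 copies of 57 bases and Gm44456. The median G and C content was 57.6% for the members and 49.7% for the older-numbered genes. A content above 65% was seen in 10 members and 3 older-numbered genes. All of these members but Mir3107 were of the 7SL kind or copies of 57 bases, several with identical sequence. The median was 66.7% in the 7SL kind and 73.7% in the copies of 57 bases. It was 54.2% in the opposite-strand kind, 52.4% in the 5 members without a partner and 32.1% in the 2 with miR-703.

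The range within the members was wide. Mir3107 had the lowest energy of all 134 miRNA genes, -0.71 kcal/mol per base, and Gm26384 the highest, -0.18. The opposite-strand kind had a median of -0.43, close to the older-numbered median, and a single loop in 8 of 8. Members of the 7SL kind had a median of -0.32 and a single loop in 2 of 7. Of the 7 members with a mean of at least 10, Gm24111, Mir3107 and Gm24105 had a single loop, and the other 4 had more.

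**Figure D4:**
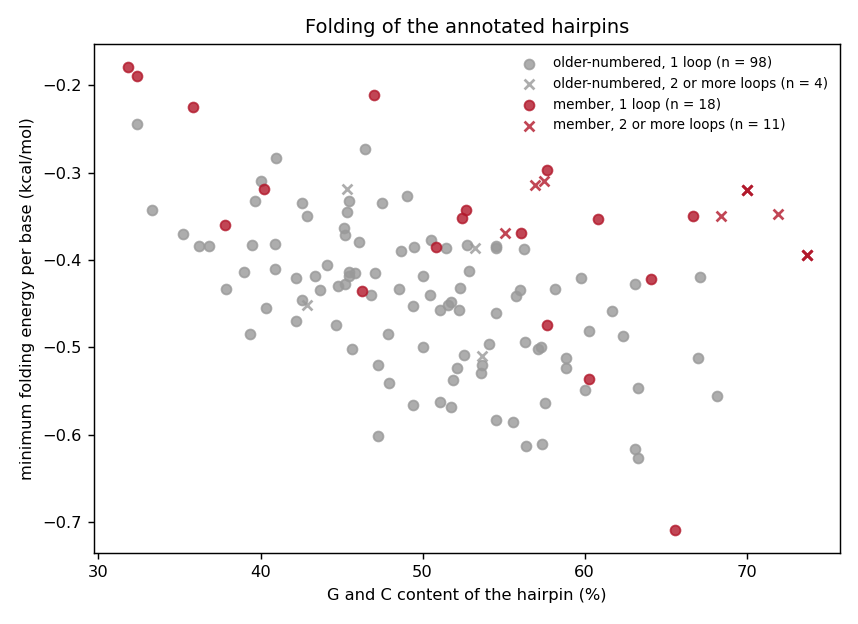
Minimum folding energy per base (kcal/mol, RNAfold) against the G and C content (%) of each annotated hairpin, with members in red, older-numbered genes in grey, circles for a single predicted loop and crosses for 2 or more; identical copies lie on each other. Of the members 25 lie above the older-numbered median of -0.43, and 11 members and 4 older-numbered genes are crosses.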

How the data were processed

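Small RNA libraries of 6 hearts, 3 per genotype, were sequenced. By the submitters' processing notes the authors trimmed reads with cutadapt, used Bowtie with the mm9 build, and tested for differences by DESeq. Elsewhere the study's methods name another sequencer, shorter reads and NextGenMap, and which procedure made the table is not stated. The signal used here is the mean normalized count in the table the authors deposited, an average over all samples after scaling for library size. How reads on overlapping genes, on either strand or with several matches were counted is not given in the sources used here. The table's other columns hold the authors' comparison of the genotypes (log2 fold changes, their standard error, a test statistic and p-values) and were not used. The depth of each library is not in the table, for which the study states only a minimum number of reads, and the number of hearts limits the precision.

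Ensembl identifiers were looked up in GENCODE M21 (GRCm38), where 60 of 10065 had no entry. Coordinates are of that build, not of mm9. Hairpins are the GENCODE transcripts, and RefSeq mature sequences were matched by symbol. Sequences of the 7SL kind are not reported here. An overlap needed at least 1 base, and shared stretches were 20 bases. Folds are from RNAfold 2.7.2 at its defaults; Python 3.11.15, numpy 2.4.6, scipy 1.17.1 and matplotlib 3.10.9 were used. The overlap and stretch steps were tested on simulated sequences. Members were named if their mean was at least 10, if they were among the 3 lowest, overlapped another row or shared a seed, and the 5 highest older-numbered genes were named; others were named after their values were seen. The members, lists and groups were chosen with earlier results of these data known.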

Additional observations from a re-analysis of the deposited data

How the results depend on the processing

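No paired analysis was possible because values of single samples are not in the table used, and for the same reason no replicate could be left out. The medians of the members, of the older-numbered genes and of the folding energy were set against 95% order-statistic intervals over genes. These were 3.37 to 7.66, 6.04 to 12.9, and -0.39 to -0.32 kcal/mol per base, and all alternatives tried stayed within them. The genes are not replicates and the alternatives reuse the same genes. The intervals are therefore only a yardstick and hold no error between hearts. With only the high Mir numbers, the share of members with a mean of at least 10 was 10% and the members' share of the summed miRNA means 1.15%, and without the members that overlap another gene these were 0% and 0.622%. At a minimum mean of 5 or 20 in place of 10, 44.8% or 10.3% of the members passed. The older-numbered genes were not counted at these minimums, so whether the gap to them holds there is not shown. Counted on the same strand only, 14 and not 22 members overlapped another gene. The other 32 of 39 alternatives left the value within its limits (the interval, or 1.5 times for counts and sums), and a Mir number boundary of 2000 chose the same 29 members. The tRNA-named genes, each hairpin sequence counted once and stretches of 18 or 22 bases were alternatives chosen after seeing the data. With stretches of 18 bases, 60 and not 40 older-numbered genes shared 1 with a gene elsewhere, and with 22 bases 31 did. With equal means of overlapping genes counted once, the members' share of the sum was 5.80%. Means below 10 rest on few reads, and the spread between hearts is unknown.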
